A study of Mus musculus with 12 samples.

Results

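The genes described here carry out antigen presentation by MHC class II in the mouse: the class II chain genes H2-Aa, H2-Ab1 and H2-Eb1, the invariant chain gene Cd74, the class II transactivator gene Ciita and the protease gene Ctss. They were taken by name, as every probe set that the platform annotation assigns to 1 of these 6 genes. This gave 6 probe sets, 1 for each gene, of 12422 tested, and 6 of 8251 genes. RNA was measured on 12 Affymetrix expression arrays of cell suspensions made by mechanical dissociation of the thymus. Leukemic cells from mice of the TEL-JAK2 genotype, in which the transcription factor TEL (Etv6) is fused to the tyrosine kinase Jak2, were on 8 arrays, taken when the mice were terminally ill. Thymocytes of wild type animals, 2 months old, were on the other 4 arrays. All mice had the C57Bl/6 background. The sources used here do not give the promoter that drives TEL-JAK2, the number of mouse lines or the age of leukemic mice. The labels name no cell sorting. Separate animals are not stated in the labels, and the p-values below therefore reflect only how far these samples differ, which may be technical.

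MHC class II molecules are pairs of an alpha and a beta chain that show peptides from the endosomes to CD4 T cells. H2-Aa and H2-Ab1 encode the pair I-A, and H2-Eb1 encodes the beta chain of I-E. The invariant chain Cd74 holds new pairs and escorts them to endosomes, where cathepsin S (Ctss) cuts it down to the fragment CLIP, which H2-DM then exchanges for peptide and which H2-DO modulates. The coactivator Ciita, together with RFX, CREB and NF-Y proteins on the promoters, switches these genes on. In the mouse, B cells, dendritic cells, macrophages and thymic epithelium carry class II, whereas mouse T cells carry little.

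Array medians lay between 66.5 and 70.2 intensity units, pairs of arrays correlated at 0.961 or more among leukemias and at 0.990 or more among thymocyte arrays, and no pair exceeded 0.997. Values below are log2 intensities. The control level of an array is the 95th percentile of 19 probe sets for non-mouse transcripts, between 5.20 and 5.59. Each of the 6 genes lay above it on all 12 arrays, Ciita by the least, at 6.03 to 6.79. Markers of other cells, such as Krt5 and Elane, were also above it on all 12 arrays, so this alone does not show expression. The T cell markers Cd3d, Cd3e, Cd3g and Thy1 lay between 9.44 and 12.3 on the 12 arrays. Such brightness is not particular to T cell markers, as the B cell marker Ighm lay between 10.42 and 11.23 on its brightest probe set. All 11 T cell markers that were measured were above the control level on every array, which by itself does not show expression either.

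The class II chains were spread widely over the leukemias. H2-Aa (probe set 92866_at), the I-A alpha chain, was at 10.29, 10.30, 10.77, 8.81, 11.40, 9.55, 11.44 and 9.16 in leukemias 1 to 8 and at 9.26, 9.02, 8.77 and 8.53 in thymocyte arrays 1 to 4. Leukemias 5, 7 and 3 were the highest, 6 of 8 leukemias lay above every thymocyte array, and leukemias 4 and 8 lay within the thymocyte range. The brightest leukemia exceeded the dimmest 6.18-fold, against 1.66-fold between thymocyte arrays. H2-Ab1 (100998_at), the I-A beta chain, was at 8.53, 8.92, 9.37, 7.53, 9.79, 8.03, 9.58 and 7.72 in the leukemias and at 8.12, 7.84, 7.54 and 7.37 in the thymocyte arrays. Here 5 leukemias exceeded every thymocyte array, and leukemias 4, 6 and 8 lay within the thymocyte range. H2-Eb1 (94285_at), the I-E beta chain, was at 10.03, 10.38, 10.79, 8.93, 11.21, 9.36, 10.96 and 9.23 in the leukemias and at 9.39, 9.18, 9.02 and 8.54 in the thymocyte arrays. The same leukemias 4, 6 and 8 fell within the thymocyte range, and the others were above it.

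**Figure D1:**
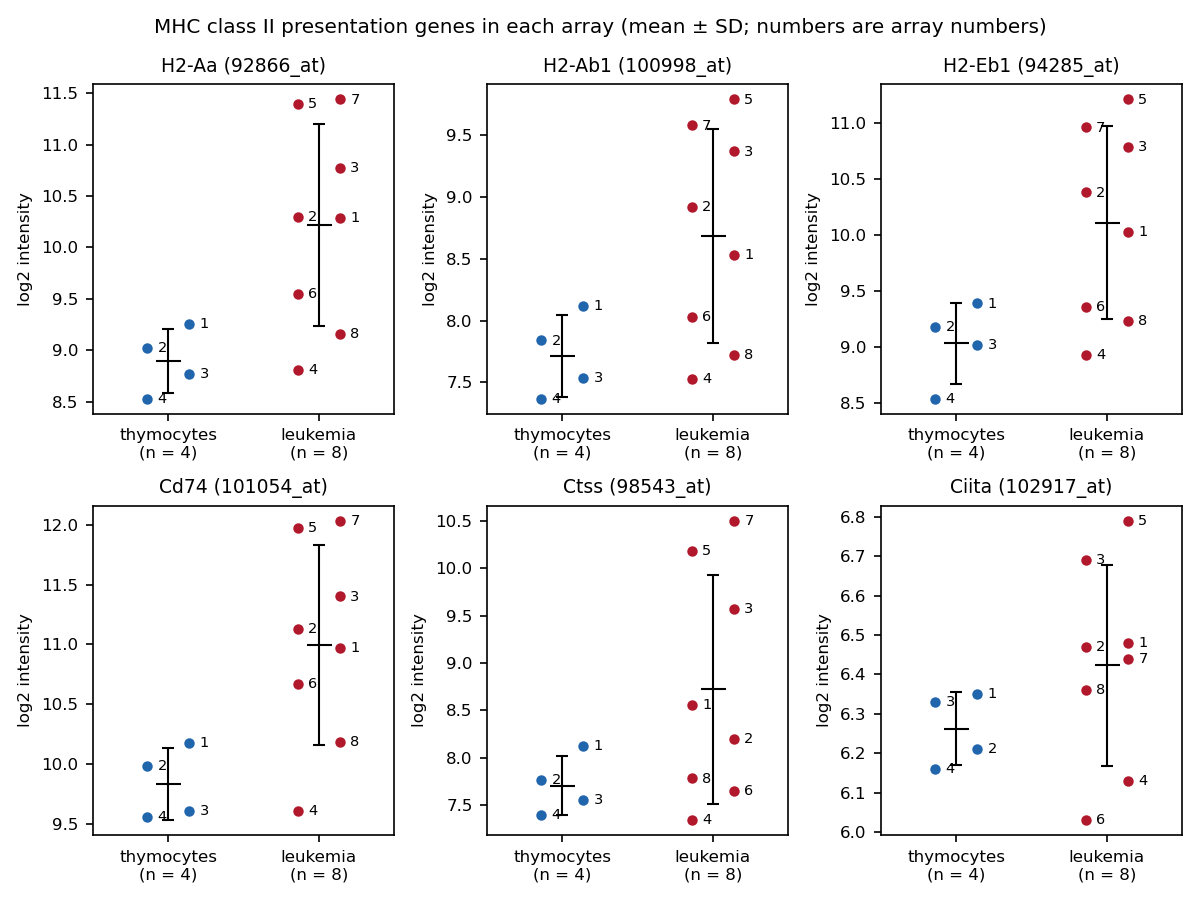
Log2 intensity of the 6 genes in each array, with thymocyte arrays (blue, n = 4) and leukemias (red, n = 8) numbered and the mean ± SD in black; each panel has its own axis. Leukemias 3, 5 and 7 are the highest for the class II chains, Cd74 and Ctss, and leukemia 4 lies within or below the thymocyte arrays in every panel.

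Promoter sequences of class II chains and of the related chains H2-Oa and H2-DMb1 are shown as a description. Of the 6 genes, H2-Aa, H2-Eb1 and Ctss have an entry in the RefSeq promoter table (GRCm38.p6, 250 bases before to 50 after the gene start). H2-Ab1, Cd74 and Ciita were not matched. The Y box of class II promoters, the site known to be read by NF-Y, was searched as TGATTGG on both strands, and the X box, known to be read by RFX, as GCAAC or AACNNATG within 60 bases before TGATTGG. These letters overlap each other where the X box holds both, and they were chosen after the sequences were read. The stretches below run 5′ to 3′ on the strand of the gene, with matches in capitals.
H2-Aa: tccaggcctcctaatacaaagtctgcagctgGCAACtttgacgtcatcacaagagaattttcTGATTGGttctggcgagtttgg
H2-Eb1: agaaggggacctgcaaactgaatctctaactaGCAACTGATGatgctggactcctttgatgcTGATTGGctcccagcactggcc
H2-Oa: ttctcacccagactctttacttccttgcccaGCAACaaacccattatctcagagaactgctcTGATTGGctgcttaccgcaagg
H2-DMb1: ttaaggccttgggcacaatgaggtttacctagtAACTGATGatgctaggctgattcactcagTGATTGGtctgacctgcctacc
The stretch of H2-Aa is chr17:34287852-34287935 on the minus strand, and TGATTGG ends 43 bases before its start. That of H2-Eb1 is chr17:34305744-34305827 on the plus strand, with 54 bases from TGATTGG to the start. That of H2-Oa is chr17:34092272-34092355 and that of H2-DMb1 chr17:34153066-34153149, both on the plus strand. All of them lie upstream of the gene start. TGATTGG was found for 7 of the 9 class II pathway genes in the table (H2-Aa, H2-Eb1, H2-Eb2, H2-Oa, H2-Ob, H2-DMb1 and H2-DMb2) and in 7.8% of all 32817 promoter windows. GCAAC before TGATTGG was found for 5 of them and in 0.451% of all windows, and AACNNATG before TGATTGG for 5 and in 0.067%. Because the letters were chosen after these sequences were read, the shares cannot measure an enrichment. The counts are of genes, and the percentages are of windows. The windows of Ctss and H2-DMa held none of these matches. GCAAC and TGATTGG were both matched in H2-Oa and in H2-Aa. Whether these sequences bear on the values over the leukemias was not tested.

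The invariant chain gene Cd74 (101054_at) was at 10.97, 11.13, 11.40, 9.61, 11.97, 10.67, 12.03 and 10.19 in leukemias 1 to 8 and at 10.18, 9.99, 9.61 and 9.56 in the thymocyte arrays. It was above every thymocyte array in 7 of 8 leukemias, by little in leukemia 8, and leukemia 4 was within their range. Cathepsin S, Ctss (98543_at), was at 8.56, 8.20, 9.57, 7.34, 10.18, 7.65, 10.50 and 7.78 in the leukemias and at 8.12, 7.76, 7.55 and 7.39 in the thymocyte arrays. Its 8.95-fold range over leukemias was the widest of the 6 genes, with leukemias 3, 5 and 7 apart from the others and leukemia 4 below every thymocyte array. Ciita (102917_at), the coactivator, was at 6.48, 6.47, 6.69, 6.13, 6.79, 6.03, 6.44 and 6.36 in the leukemias and at 6.35, 6.21, 6.33 and 6.16 in the thymocyte arrays. It spanned 1.69-fold over leukemias, with leukemias 5 and 3 highest and leukemias 4 and 6 below every thymocyte array.

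The comparison of leukemia with thymocytes asked whether the group means differed. They did not pass the test for any of the 6 genes (0 of 6 probe sets at an adjusted p under 0.05 by limma, Benjamini-Hochberg over all probe sets, where 14.5% of all probe sets passed, 4.65% higher and 9.88% lower in leukemia). The count per gene was 0 of 6 as well, against 17.3% of all genes (28.4% at an unadjusted p under 0.05). At an unadjusted p under 0.05 there were 4 of 6, the 3 chains and Cd74, where 25.8% of all probe sets were. All 6 differences were positive, with a median of 1.05 on the log2 scale against 0.0037 over all genes. H2-Aa had a mean of 8.90 ± 0.32 in thymocytes (SD, n = 4), 10.22 ± 0.98 in leukemia (SD, n = 8), a difference of 1.32 (95% interval 0.36 to 2.28, limma adjusted p = 0.0667). Cd74 had a log2 difference of 1.16, with SDs of 0.30 in thymocytes and 0.84 in leukemia, or 2.24-fold (95% interval 1.26 to 3.96, limma adjusted p = 0.0597). H2-Eb1 differed 2.12-fold (1.17 to 3.84, adjusted p = 0.0938) and H2-Ab1 1.96-fold (1.08 to 3.55, adjusted p = 0.137). Ctss differed 2.03-fold with an interval from 0.898 to 4.57 (adjusted p = 0.268), and Ciita 1.12-fold with an interval from 0.929 to 1.35 (adjusted p = 0.465). The intervals are unadjusted.

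These calls depended on the leukemias at the low end. Without leukemia 4, the 3 chains and Cd74 passed (adjusted p from 0.00895 for Cd74 to 0.0497 for H2-Ab1, with a log2 difference of 1.52 for H2-Aa). Without leukemia 8, H2-Aa (1.47, adjusted p = 0.0426) and Cd74 (1.28, adjusted p = 0.0441) passed. With array weights, estimated as 1 variance for each group, H2-Aa, H2-Eb1 and Cd74 passed (adjusted p = 0.0212, 0.0348 and 0.019). Ctss and Ciita passed in none of the settings run. Titles carry a number of 4 digits in 4 leukemias and 3 thymocyte arrays, whose meaning is not given. Among these arrays alone the log2 difference of H2-Aa was 1.30, among the other 4 leukemias and 1 thymocyte array 1.58, and with the title number as a block 1.39 (adjusted p = 0.134, 0.622 and 0.063). The second of these has 1 thymocyte array, which gives no spread of its own and is assumed to vary like the leukemias, so its p says little. For Cd74 these differences were 1.10, 1.41 and 1.20.

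The class II chains, Cd74 and Ctss differed more between leukemias than most genes did. Over the 5906 genes whose mean was above the control level, the median SD was 0.18 in leukemias and 0.12 in thymocyte arrays. Ctss, with an SD of 1.21 in leukemias, ranked 25 of these 5906 genes, H2-Aa ranked 55, H2-Ab1 88, H2-Eb1 90 and Cd74 99, while Ciita (SD 0.25) ranked 1689. Thymocyte arrays had an SD of 0.30 to 0.36 for the chains, Cd74 and Ctss. Thymocyte array 1 was the highest and array 4 the lowest of the thymocyte arrays for each of these 5 genes. The 6 pairs among H2-Aa, H2-Ab1, H2-Eb1 and Cd74 had Pearson correlations of 0.964 to 0.998 over the 8 leukemias, given as a description of arrays that share a normalization. H2-Aa had a correlation of 0.957 with Ctss and 0.771 with Ciita. The mean of the chains and Cd74, relative to the thymocyte mean, was 2.22 in leukemia 5, 2.13 in leukemia 7, 1.71 in leukemia 3, 1.31 in leukemia 2 and 1.09 in leukemia 1. It was 0.53 in leukemia 6, 0.20 in leukemia 8 and -0.15 in leukemia 4, against -0.37 to 0.37 in thymocyte arrays. Leukemias 5, 2, 3 and 4 carry the 4-digit title number, so the highest and the lowest leukemia are both among them.

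**Figure D2:**
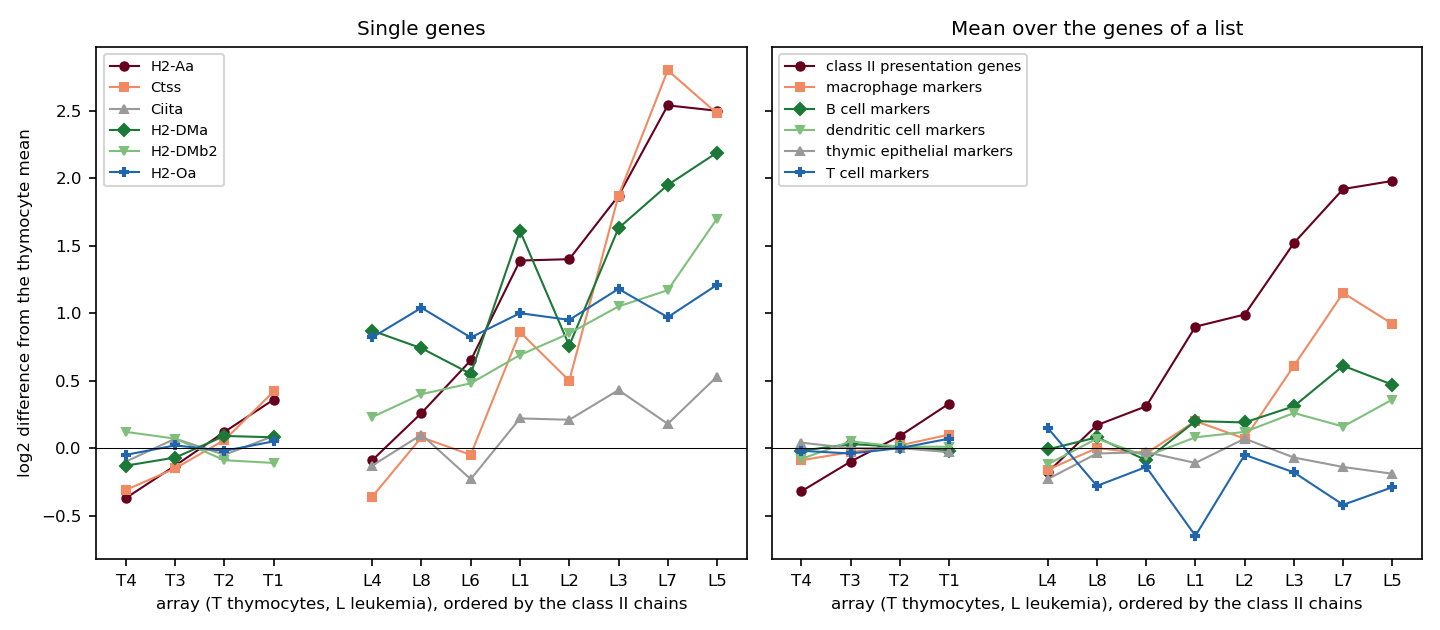
Log2 difference from the thymocyte mean in each array, for single genes (left) and as the mean over the genes of a list (right), with arrays ordered within each group by the mean of the class II chains and Cd74. H2-Aa and Ctss climb from leukemia 4 to leukemias 5 and 7, H2-Oa is raised by a similar amount in all 8 leukemias, and macrophage markers are highest in leukemias 3, 5 and 7.

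The genes around the classical chains included some that did pass. Of 7 genes for related chains and peptide exchange 3 rose, 0 fell and 4 did not pass (5.41% of all genes rose and 11.9% fell), with a median log2 difference of 0.82. H2-Oa (102274_at), the alpha chain of H2-DO, which restrains H2-DM, was at 8.90, 8.85, 9.08, 8.72, 9.11, 8.72, 8.87 and 8.94 in leukemias 1 to 8 and at 7.95, 7.88, 7.92 and 7.85 in thymocyte arrays. All leukemias exceeded all thymocyte arrays, as for 4.21% of all genes, and the leukemias differed little among themselves. The change was 1.0 (SE 0.08, limma adjusted p = 3.37e-06). Its correlation with the chains over the leukemias was 0.666, on an SD of 0.14. H2-DMa (93092_at), the alpha chain of the peptide exchanger H2-DM, was at 9.95, 9.10, 9.97, 9.21, 10.53, 8.89, 10.29 and 9.08 in the leukemias and at 8.42, 8.43, 8.27 and 8.21 in the thymocyte arrays. It rose 2.45-fold, and also had every leukemia above every thymocyte array, with leukemias 5 and 7 highest. A second probe set of H2-DMa, which can cross-hybridize, had a difference of 0.42 (adjusted p = 0.116 over all probe sets).

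H2-DMb2, a beta chain of H2-DM, rose by 0.82 (SE 0.22, limma adjusted p = 0.0193) and H2-DMb1, its near-identical neighbour, had a difference of 0.87 (adjusted p = 0.074). The probe sets of both can share target. H2-DMb1 was at 9.62 and 9.48 in leukemias 5 and 7 and at 7.69 in leukemia 4, against a thymocyte range of 7.59 to 7.88. H2-Ob, the beta chain of H2-DO, was at 6.10 ± 0.16 in thymocytes (SD, n = 4), 6.56 ± 0.44 in leukemia (SD, n = 8) and did not pass (adjusted p = 0.162). H2-Ea, the I-E alpha chain gene, is known to be silent in C57BL/6 mice because its promoter is deleted in their haplotype. It lay between 4.05 and 4.43 on all 12 arrays, under the control level on each of them. H2-Eb2 was likewise near the control level in both groups.

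**Figure D3:**
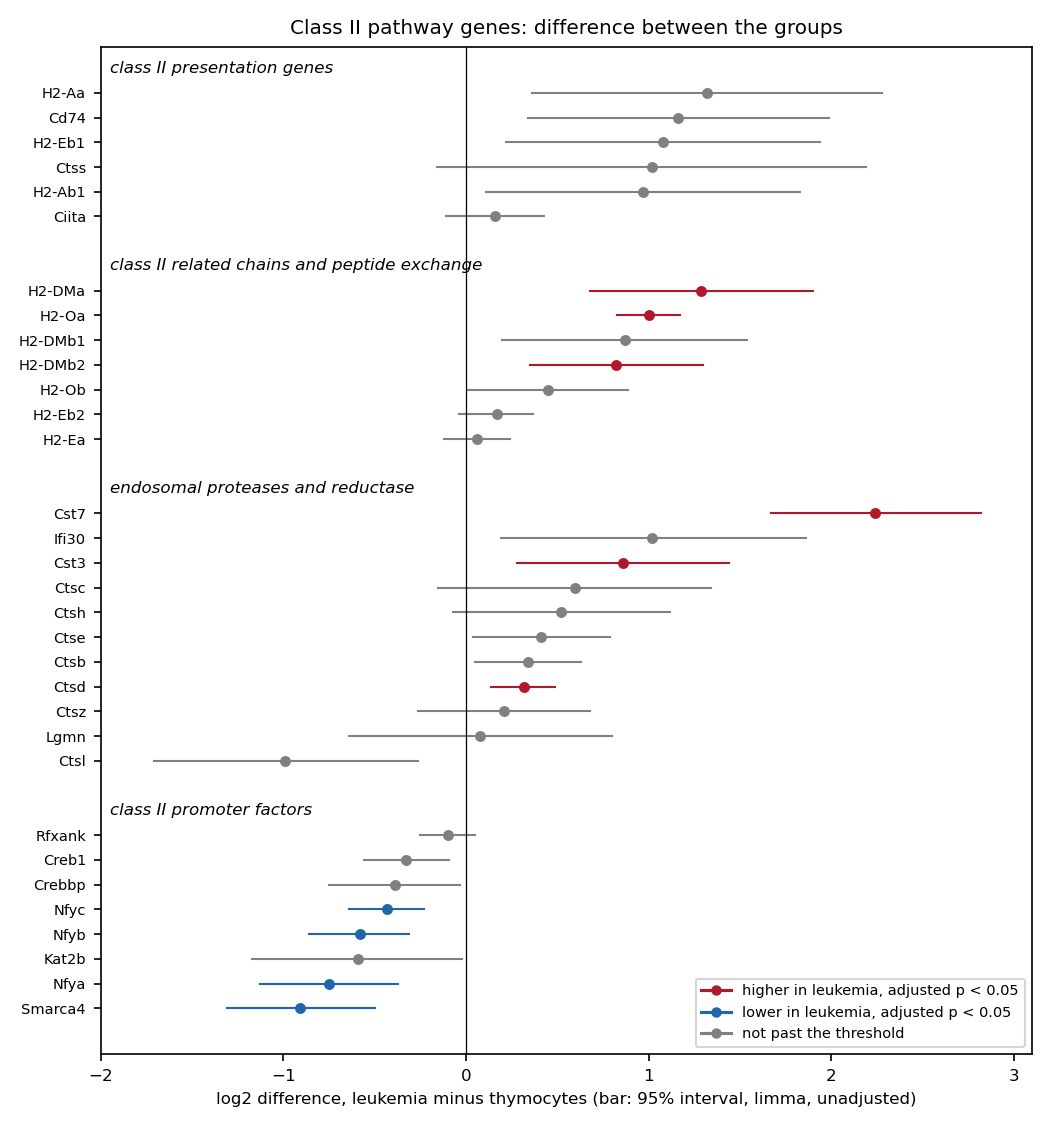
Log2 difference between leukemia (n = 8) and thymocytes (n = 4) with its unadjusted 95% interval from limma, for the 6 class II presentation genes and 3 lists of pathway genes; colour marks genes past an adjusted p of 0.05. H2-Oa has a narrow interval around 1.0, the class II chains have wide ones around similar differences, and NF-Y subunits lie below 0.

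Among endosomal proteases, protease inhibitors and a reductase, 3 of 11 genes rose, 0 fell and 8 did not pass (5.41% of all genes rose and 11.9% fell). Cst7, cystatin F, an inhibitor of cysteine cathepsins, was at 6.38 ± 0.07 in thymocytes (SD, n = 4), 8.62 ± 0.59 in leukemia (SD, n = 8), a change of 2.24 (SE 0.27, limma adjusted p = 9.02e-05). Cst3, the secreted inhibitor cystatin C, rose by 0.86 (adjusted p = 0.0431). It no longer passed without leukemia 2, 3, 5 or 7 or without any 1 thymocyte array (0.75 to 0.92, adjusted p = 0.0583 to 0.124). A second Cst3 probe set, above the control level on all 12 arrays, rose by 0.68 (limma adjusted p = 0.0358 over all probe sets). Ctsd, the aspartic protease cathepsin D, rose by 0.32, and was the only enzyme of the list to pass on its brightest probe set. Cathepsin B, Ctsb, had 0.34 on its brightest probe set (adjusted p = 0.104). Its other probe sets gave 0.44, 0.47 and 0.09 (limma adjusted p = 0.0125, 0.0461 and 0.48 over all probe sets). For the last both group means were near the control level, and for that of 0.47 the thymocyte mean was. Ifi30, the thiol reductase that opens disulfide bonds of antigens, was at 7.37, 7.72, 8.15, 6.31, 8.49, 7.03, 8.76 and 6.85 in leukemias 1 to 8 and at 6.85, 6.66, 6.30 and 6.45 in thymocyte arrays. It did not pass (1.02, adjusted p = 0.0931), and leukemia 4 was again the lowest and leukemias 5 and 7 the highest. Ctsl, cathepsin L, the protease known to process the invariant chain in cortical thymic epithelium, had the opposite sign (-0.99, adjusted p = 0.06), and 7 of 8 leukemias were below every thymocyte array.

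The promoter factors of class II genes were lower in leukemia where they passed. Of 8 measured factors 0 rose, 4 fell and 4 did not pass (11.9% of all genes fell), with a median of -0.51. All 3 subunits of NF-Y, which reads the Y box shown above, fell: Nfya from 8.15 ± 0.08 (SD, n = 4) to 7.40 ± 0.38 (SD, n = 8), Nfyb by 0.58 and Nfyc by 0.43 (limma adjusted p = 0.00917, 0.00588 and 0.00607). The chromatin remodeller gene Smarca4 fell by 0.91 on its brighter probe set (adjusted p = 0.00405), and its other probe set was near the control level. In each of these 4 genes all leukemias lay below all thymocyte arrays, as for 8.11% of all genes. Rfxank, a subunit of RFX, had a difference of -0.10 (adjusted p = 0.404). Rfx5 and Rfxap were not analysed here.

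Interferon-gamma is a known inducer of Ciita. Of 14 genes of its signalling and early targets 3 rose, 0 fell and 11 did not pass, with a median of 0.60. Over all genes 5.41% rose and 11.9% fell. The receptor chain gene Ifngr1 was at 9.36, 10.28, 9.97, 10.41, 10.02, 10.31, 9.30 and 10.02 in leukemias 1 to 8 and at 8.75, 8.75, 8.57 and 8.57 in thymocyte arrays, a change of 1.30 (SE 0.19, limma adjusted p = 0.000495). It was raised in every leukemia, and leukemia 4, the lowest for class II chains, was the highest. The transcription factor genes Irf1 (1.01, adjusted p = 0.017) and Irf8 (1.20, adjusted p = 0.0301) rose, and both were highest in leukemias 3, 5 and 7. Irf8 also marks myeloid and B cells, and it no longer passed in arrays with the 4-digit title number alone (1.20, adjusted p = 0.0581). Ifng itself was below the control level on all 12 arrays. Gbp2, a guanylate-binding protein, had a difference of 1.35 and did not pass (adjusted p = 0.0531), and the chemokine gene Cxcl9 was at 7.08, 6.59 and 7.43 in leukemias 3, 5 and 7 and between 3.55 and 5.39 in the other leukemias, where it was not above the control level.

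Markers of the cells that carry class II were followed in the same arrays. In bulk RNA, more cells of a type and more RNA per cell cannot be told apart. Of 19 macrophage markers 0 passed by limma, and 2 were under an unadjusted p of 0.05, with a median of 0.22. Over all genes these shares were 17.3% and 28.4%. Their summed intensity ran from 1711 to 6993 in leukemias and from 1920 to 2559 in thymocyte arrays. The complement gene C1qc was at 9.58, 10.17 and 10.67 in leukemias 3, 5 and 7 and between 7.76 and 8.60 in the other leukemias, against 7.98 to 8.63 in thymocyte arrays. Mpeg1, a pore-forming protein of macrophages, was at 9.41, 9.79 and 9.50 in leukemias 3, 5 and 7, at 8.89 in leukemia 2 and at 7.73 in leukemia 4. Apoe, the brightest with these, reached 9.84 and 10.48 in leukemias 5 and 7, and the other leukemias lay between 7.79 and 8.99. On its brightest probe set the receptor gene Csf1r had a difference of 0.22 (limma adjusted p = 0.127). Its correlation with the class II chains over the leukemias was 0.093, against 0.981 for Mpeg1. A second Csf1r probe set, also above the control level on all 12 arrays, had a difference of 0.43 (limma adjusted p = 0.299 over all probe sets). That probe set was highest in leukemias 7 and 5 (7.28 and 6.75) and lowest in leukemia 4 (5.62). The contrast of Csf1r with Mpeg1 thus depends on the probe set. Other macrophage genes, among them Adgre1, Mrc1, Itgam, Mertk and Axl, were near the control level in both groups (7 of 19). The mean over the list, relative to thymocytes, was 1.15, 0.92 and 0.61 in leukemias 7, 5 and 3 and -0.16 to 0.20 in the other 5.

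B cell markers did not all share 1 order over the leukemias. Of 17 measured 0 passed by limma, and 2 were under an unadjusted p of 0.05 (17.3% and 28.4% of all genes). Their sums were 2887 to 4026 in leukemias and 2876 to 3235 in thymocyte arrays. Cd79b, a chain of the B cell receptor, was at 7.20, 7.38, 7.42, 6.76, 8.49, 6.89, 8.0 and 6.63 in leukemias 1 to 8 and at 7.43, 7.42, 7.33 and 7.25 in thymocyte arrays, so that leukemias 5 and 7 stood above the thymocyte range and leukemias 1, 4, 6 and 8 below it. Blk, a kinase gene of B cells, ran the other way, at 5.98, 6.27, 6.84, 8.04, 6.34, 5.89, 6.36 and 7.83 in leukemias 1 to 8 and between 5.69 and 6.01 in thymocyte arrays. It was highest in leukemias 4 and 8, the lowest for the class II chains, and its difference of 0.88 was the largest of the list (limma adjusted p = 0.128). Over the 8 leukemias the Pearson correlation with the chains was 0.931 for Cd79b, 0.878 for Cd79a, 0.661 for Pax5, -0.412 for the immunoglobulin gene Ighm and -0.592 for Blk, as a description. It was 0.969 for Btk, 0.929 for Blnk, 0.897 for Ms4a1, 0.883 for Spib, 0.771 for Cd22 and 0.494 for Fcer2a. Ighm and Blk were thus the only negative ones among the markers above the control level. The mean over the list, relative to thymocytes, was 0.61, 0.47 and 0.31 in leukemias 7, 5 and 3. In the other leukemias it was -0.09 to 0.20. Cd79a had a log2 difference of 0.70 (adjusted p = 0.0798) and Ighm of -0.03, both values of Ighm being for its brightest probe set. Other Ighm probe sets above the control level on all 12 arrays had differences of 0.08 to 0.53. None of these passed (limma adjusted p = 0.182 to 0.796 over all probe sets). The brightest of them was highest in leukemia 7 (9.85) and lowest in leukemia 6 (8.53). The order of Ighm over the leukemias thus depends on the probe set. Ebf1, Cr2, Cd72, Fcrla, Vpreb3 and Pou2af1 were near the control level in both groups. Of 12 dendritic cell markers 0 passed by limma, and 1 was under an unadjusted p of 0.05 (17.3% and 28.4% of all genes). Their sums, 1441 to 2051 in leukemias, enclosed the 1583 to 1691 of thymocyte arrays. Fscn1 was at 9.09, 9.24 and 8.92 in leukemias 3, 5 and 8, between 8.51 and 8.75 in the others and at 8.79 ± 0.03 (SD, n = 4) in thymocytes. Its correlation with the chains over the leukemias was 0.52. That of Ccr7 was 0.832, of Batf3 0.821, of Itgax 0.783 and of Il12b 0.837, the last on an SD of 0.11. Xcr1, Ccl22, Ly75 and Ccl17 had 0.337 to 0.508, and Flt3 had -0.349. The mean over the dendritic cell list was 0.36, 0.26 and 0.16 in leukemias 5, 3 and 7 and lowest in leukemia 4 (-0.12). The part of these cells in the spread of the class II genes was not tested.

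Thymic epithelial markers did not share that order. Of 13 measured 1 rose and 3 fell (5.41% of all genes rose and 11.9% fell). Their sums were 901 to 1187 in leukemias and 1137 to 1219 in thymocyte arrays. The chemokine gene Ccl25 was at least 2.03-fold lower, since its leukemia mean lay near the control level (measured change -1.20, limma adjusted p = 2.78e-05), and Aire fell by 0.23 (adjusted p = 0.0471). Epcam, which rose by 1.37, and Krt18, which fell by 0.40, were near the control level in both groups. The keratin gene Krt8 had a difference of -0.09. T cell markers, which make up the body of these suspensions, had sums of 13719 to 24475 in leukemias and 21199 to 22254 in thymocyte arrays. Of 11 measured, Cd2 rose (1.38) and Cd4 (-1.89) and Cd247 (-0.93) fell. The mean over the list was lowest in leukemias 1 and 7 (-0.65 and -0.42) and highest in leukemia 4 (0.15). Pearson correlations with the class II chains over the leukemias were -0.726 for Cd3d and -0.71 for Thy1. Those of Cd247, Cd4, Lat, Cd3g, Cd8b1 and Cd8a lay between -0.477 and -0.31. Cd3e had 0.185, Cd2 0.124 and Zap70 0.019, all as a description.

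The genes whose values were most like the class II chains over the leukemias were ranked by Pearson correlation with the mean of H2-Aa, H2-Ab1, H2-Eb1 and Cd74 over 8 leukemias, among 5900 other genes above the control level. The 10 highest were Ifi30 (0.988), the myeloid and B cell transcription factor gene Spi1 (0.983), Mpeg1 (0.981), the adaptor gene Tyrobp of myeloid and NK cells (0.979), Ly86 (0.972), which encodes the MD-1 partner of RP105, H2-DMb1 (0.972), the kinase gene Btk of B and myeloid cells (0.969), the aminopeptidase cathepsin H, Ctsh (0.969), the lysosomal macrophage protein gene Cd68 (0.959) and the actin-severing protein gene Dstn (0.959). These are descriptions over 8 arrays, and 37 genes exceeded 0.9. Spi1, for example, was at 7.0, 7.22 and 7.06 in leukemias 3, 5 and 7 and at 6.29 in leukemia 4, against 6.36 to 6.41 in thymocyte arrays. None of the 10 passed the comparison of group means (limma adjusted p from 0.074 for H2-DMb1 to 0.414 for Cd68). Dstn was the only one of them with a lower mean in leukemia (-0.69, adjusted p = 0.099). H2-DMb2 and H2-Ob each had 0.95, Cd79b 0.931, Ctss 0.947 and Ciita 0.794, whereas Ifngr1 had -0.52 and Nfyc -0.616. Without leukemia 4, 5 of the 10 genes stayed among the 10 highest, and without any other leukemia 7 or more did.

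**Figure D4:**
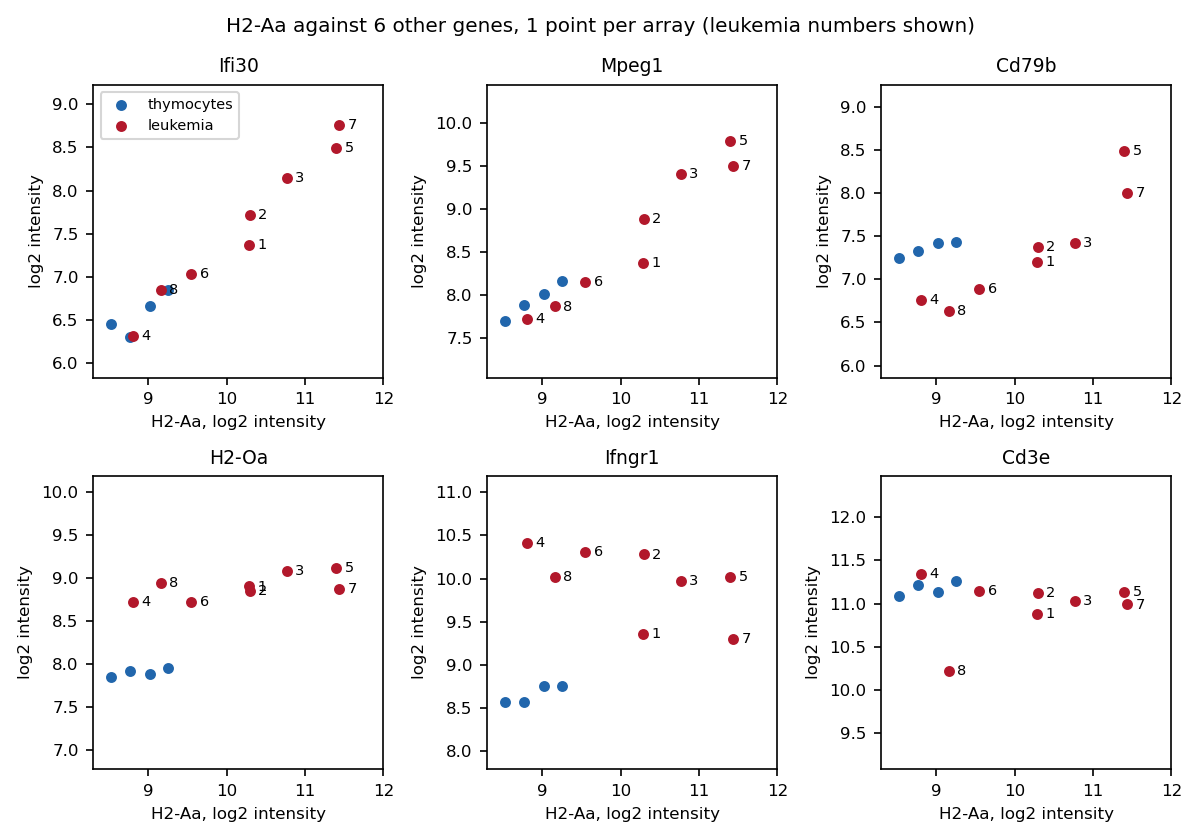
Log2 intensity of 6 genes against that of H2-Aa, 1 point for each thymocyte array (blue, n = 4) and leukemia (red, n = 8, numbered); all panels span the same number of log2 units. Ifi30, Mpeg1 and Cd79b climb with H2-Aa over the leukemias, H2-Oa and Ifngr1 are higher in leukemias at every H2-Aa value, and the T cell gene Cd3e shows no such climb. The T cell genes Cd3d and Thy1, not drawn here, had Pearson correlations of -0.726 and -0.71 with the class II chains over the leukemias.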

How the data were processed

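RMA is the tool that the submitters' processing notes name for the intensities deposited, which are linear and have 1 value per probe set and array. Its version and any later steps are not given here. The table held 12488 probe sets, and 66 Affymetrix controls were left out. Their log2 was taken with no pseudocount. Platform annotation gave 1 gene for 10833 probe sets and several for 396, with symbols updated through a RefSeq table (GRCm38.p6). Groups were compared by a two-sided test in limma (version 3.58.1, R 4.3.3) without covariates, using lmFit, then eBayes, and a Benjamini-Hochberg adjusted p under 0.05. The 6 genes were tested over all probe sets, and list genes over 8251 genes, each represented by whichever of its probe sets had the highest mean intensity in the 12 arrays. Of 159 listed genes 133 were measured. Arrays were simulated as independent normal values, with the overall mean of each probe set and 1 residual SD pooled over both groups. In these the fit recovered 95.0% of 100 probe sets changed by 1 log2 unit. There were 4 false calls among the unchanged of the 12422 probe sets. The wider spread of leukemias and the correlation between genes were not simulated. The share of 95.0% is over probe sets in general. It does not carry over to the class II chains, Cd74 and Ctss, whose SDs in leukemia were 0.84 to 1.21. The number of arrays limits the precision.

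The genes, lists and tests were chosen with earlier results of these data known. The rule for names covered the 6 genes, up to 6 called genes of each pathway list and H2-Ea, and the 10 genes most like the chains. Of each marker list it covered the 3 brightest and up to 3 largest called changes. Not every marker under this rule is described above. Ccl22 and Flt3 (differences of -0.15 and 0.24), Cd8a, Cd8b1 and Cdh1 are among those left out. Other names were chosen after their values were seen. Where a group mean lay below the control level, a fold is a lower bound, set against the higher of the array's control level and its own value. Alternatives covered the probe sets tested, normalization, centring, variance model, array weights estimated per group, each array left out, title numbers, thresholds, a pseudocount of 32 and the probe set per gene; the arrays without a 4-digit title number alone were added after seeing the data.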

Additional observations from a re-analysis of the deposited data

How the results depend on the processing

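All 6 differences stayed positive in every setting run. The count of the 6 genes past the threshold, 0, was the same in 19 of 23 settings over probe sets and 21 of 25 over genes, and became 2 in the brighter part of the probe sets (H2-Aa and Cd74), 3 with array weights and 0 to 4 when 1 array was left out. The 11 higher pathway genes became 19 with array weights, 6 at an adjusted p under 0.01, 3 with limma's treat against 1.5-fold and 8 to 17 without 1 array, the most without leukemia 4. The 4 lower pathway genes became 0 with treat and 4 to 7 without 1 array, again the most without leukemia 4. The 2 higher marker genes became 1 in the brighter part of the probe sets, 5 with array weights, 4 with the title-number block, 1 with treat and 2 to 4 without 1 array. The 9 lower marker genes became 4 in the brighter part of the probe sets and 3 with treat. In the 4 leukemias and 1 thymocyte array without a 4-digit title number, each of these counts was 0. With 1 thymocyte array, assumed to vary like the leukemias, this says nothing about stability. Of the 10 genes most like the chains 5 to 9 were kept without 1 leukemia, 5 of them without leukemia 4. H2-DMa, H2-DMb2 and Irf8 lost their call in 2, 5 and 9 of 25, 24 and 25 settings. No paired analysis was possible because the labels give the groups no shared replicate numbers. The causes of these changes were not tested. The number of arrays limits the precision.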

Other observations

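Tetraspanins, membrane proteins that gather class II molecules into clusters, were followed as a further list. Of 6 measured 2 rose, 0 fell and 4 did not pass (5.41% of all genes rose and 11.9% fell). Cd82 rose by 1.54 on its brightest probe set (SE 0.13, limma adjusted p = 5.54e-06), with every leukemia above every thymocyte array, but a second probe set above the control level gave 0.17 (adjusted p = 0.247 over all probe sets). Cd37 rose by 0.51 (limma adjusted p = 0.00309), also in every leukemia. Cd63 and Cd9 had differences of 0.10 and 0.06 and a Pearson correlation of 0.875 each with the class II chains over the 8 leukemias, as a description.

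Granulocyte markers were lower in leukemia where they passed, with 0 of 10 higher and 4 lower (5.41% of all genes rose and 11.9% fell). Csf3r, the brightest of the list, had a difference of 0.02 (limma adjusted p = 0.937). S100a8 fell by 1.66 and Camp by 0.49, Ngp was at least 1.49-fold and S100a9 at least 1.29-fold lower, the last 2 near the control level in leukemia. None of 5 erythroid markers passed by limma, and 0 were under an unadjusted p of 0.05 (17.3% and 28.4% of all genes). The alpha-globin gene Hba-a1 lay between 9.67 and 12.49 in leukemias and between 11.54 and 12.66 in thymocyte arrays.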
